A study of Bos taurus with 50 samples.

Results

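Endometrium with a high and with a low abundance of OXTR mRNA was compared at week 9 postpartum. OXTR encodes the oxytocin receptor. The classes were set by 1 measured gene: a library was OXTR-high where OXTR (ENSBTAG00000019772) had 30 or more reads per 1000000 reads counted on genes (CPM), and OXTR-low where it had fewer. All 24 week 9 libraries of the 50 in the study were used, of which 7 were OXTR-high and 17 OXTR-low. The cows were in their first lactation and of Holstein x Jersey admixture. They had been given GnRH, a progesterone (P4) insert and prostaglandin F so that the week 9 biopsy fell in the luteal phase of a synchronised oestrous cycle, which holds for both classes. The labels also give the state of the cow at week 5: CycW5 cows were cycling and under P4, NoCycW5 cows were not cycling, and CycNoP4 cows were cycling with no P4. The OXTR-high class held 3 CycW5 and 4 NoCycW5 libraries. The OXTR-low class held 7 CycW5, 7 NoCycW5 and all 3 CycNoP4 libraries. The ovarian state at week 9 is not in the labels, so the classes are a stand-in for non-luteal and luteal tissue and are named by their rule.

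In the ruminant endometrium, P4 from the corpus luteum holds OXTR at a low level for most of the luteal phase. When this restraint ends, oxytocin acts on the receptor in the epithelium and drives the pulses of prostaglandin F that end the life of the corpus luteum. P4 also sets the secretory and transport functions of the luteal glands, whereas oestradiol acts through ESR1 around oestrus. A biopsy holds epithelium, stroma and vessels together, and in such bulk tissue fewer cells of a type and less RNA per cell cannot be told apart.

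The 24 libraries had 21592867 to 32453713 reads counted on genes, with a median of 27380291 in the OXTR-high and 27427079 in the OXTR-low class. The 10 most counted genes took 5.64 to 13.41% of a library, and the highest share was that of OXTR-high library 87 (CycW5). Each library is called by the first number of its label. Epithelial markers were present in every library (EPCAM 172 to 668 CPM), as were the stromal marker PDGFRA (342 to 961 CPM) and the endothelial marker CDH5 (29.03 to 73.8 CPM). Nothing in the labels links libraries to cows, so P values measure the spread between these samples, some of which may be technical.

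OXTR itself chose the classes and is given only as a description. The lowest OXTR-high library was 75 (NoCycW5) with 39.7 CPM, followed by 83 (CycW5) with 67.0 and 80 (NoCycW5) with 84.5 CPM. Library 76 (NoCycW5) had 94.2, 72 (CycW5) 111, 87 (CycW5) 160 and 91 (NoCycW5) 162 CPM. The OXTR-low libraries lay between 1.58 and 11.3 CPM (median 5.51), and the highest of them was 97 (CycW5). No library lay between 11.3 and 39.7 CPM, so a cut of 20 gave the same classes. At week 5, where the state is labelled, all 12 NoCycW5 libraries (75.7 to 244 CPM) and all 4 CycNoP4 libraries (125 to 256 CPM) were over the cut. So were 6 of the 10 CycW5 libraries (5.21 to 162 CPM), which were under P4 by their label. OXTR was higher at week 5 in the NoCycW5 than in the CycW5 cows (log2 fold change 1.43, SE 0.35, BH P = 0.0039, edgeR quasi-likelihood test), but a cut of 30 CPM did not separate these groups.

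**Figure D1:**
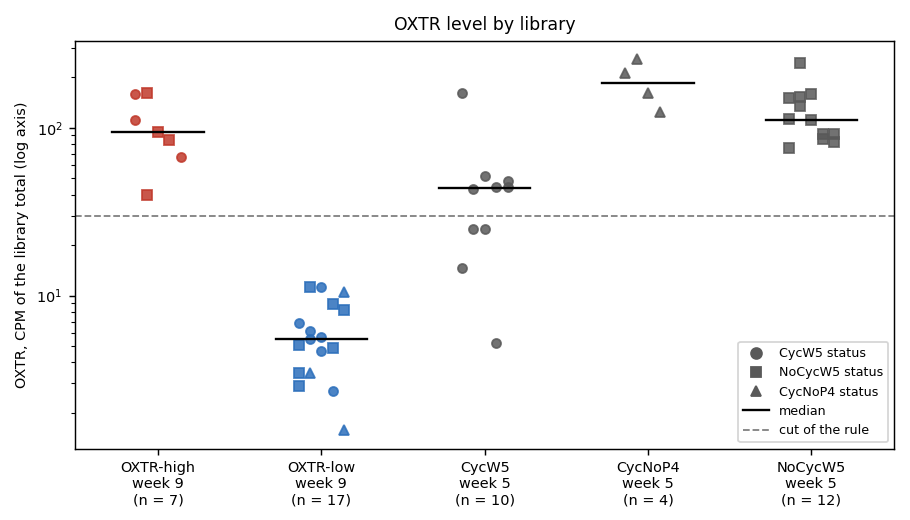
OXTR in CPM of the library total (log axis) for each library, by week 9 class and by week 5 group; marker shape gives the labelled status, bars are medians and the dashed line is the cut of 30 CPM. The week 9 classes are separated by the gap between 11.3 and 39.7 CPM, while 6 of the 10 CycW5 libraries of week 5 lie over the cut.

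The label of non-luteal tissue was then checked against genes that the rule had not used. For the 4313 genes other than OXTR that differed between NoCycW5 and CycW5 cows at week 5, the position of each week 9 library was taken between the week 5 group means on the log2(CPM + 0.5) scale, with 0 for NoCycW5 and 1 for CycW5, and the median over genes was kept. OXTR-high libraries 76, 91 and 87 lay at 0.057, 0.069 and 0.214, close to the NoCycW5 cows. The other 4 OXTR-high libraries lay at the CycW5 end: 75 at 0.804, 83 at 0.870, 80 at 1.21 and 72 at 1.32. Of the OXTR-low libraries, 16 lay between 0.796 and 1.54, and library 89 (CycW5) lay at 0.249. On a second axis, from the CycNoP4 to the CycW5 cows of week 5 (2785 genes), libraries 87, 76 and 91 lay at 0.073, 0.279 and 0.572, the other OXTR-high libraries between 0.810 and 1.09, and library 89 at 0.395. The first axis did not place every library of week 5 by its label. CycW5 library 57 lay at 0.141, while the other 9 CycW5 libraries lay at 0.686 or more, and the 4 CycNoP4 libraries, also without P4, lay between 0.152 and 0.625. The 12 NoCycW5 libraries lay between -0.166 and 0.195. The NoCycW5 and CycW5 libraries had themselves picked the genes and set 0 and 1, so their own positions are no check of the axis. By position on the first axis, 4 of the 7 OXTR-high libraries were over every week 5 library labelled as without P4. OXTR-low library 89 was under all CycW5 libraries but 57 there. On the second axis the 12 NoCycW5 libraries lay between 0.157 and 0.811, and the highest of them, library 65, lay over OXTR-high library 83 (0.810). The classes are therefore not called luteal or non-luteal.

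**Figure D2:**
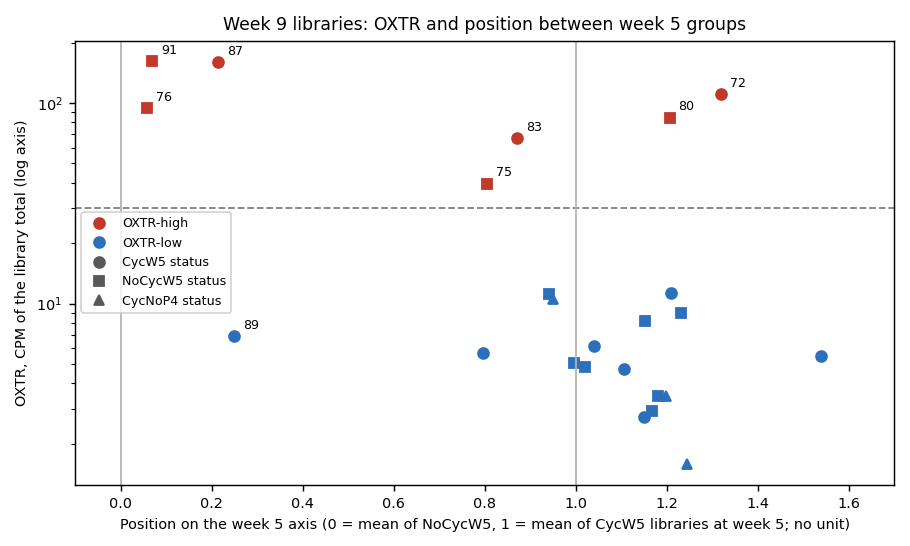
Position of each week 9 library between the NoCycW5 (0) and CycW5 (1) means of week 5 over 4313 genes (horizontal axis, no unit) against OXTR in CPM (log axis); colour gives the class and shape the status. OXTR-high libraries fall into 3 near 0 and 4 at 0.804 or more, and OXTR-low library 89 lies apart from the other 16.

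Over all genes, 3073 of the 15285 tested were differentially expressed (DEG) between the classes (20.1%). In the OXTR-high class, 1296 genes were higher (8.48%) and 1777 were lower (11.6%). The fold change was 2 or more for 682 of them (4.46% of those tested), 402 higher and 280 lower. Because a measured gene set the classes, a BH P here says that a gene went with the OXTR class and not that a treatment changed it. The number of DEG rested on few libraries, and counts of list members without a library are to be read beside it. The number was 1539 without library 87 (669 higher, 870 lower) and 2033 without library 76 (959 higher, 1074 lower). Without library 89 it was 5824 (3263 higher, 2561 lower). Without the 4 libraries nearest the NoCycW5 end (76, 87, 91 and 89) it was 2886, of which 1773 were higher and 1113 lower, so the balance of directions turned. Without the 4 OXTR-high libraries at the CycW5 end (72, 75, 80 and 83) it was 4109, of which 1731 were higher and 2378 lower. Both sets left out were picked by measured positions on the week 5 axis, so these counts, and the single-gene values without these sets below, only describe how the class was made up. Within the NoCycW5 libraries alone, 2256 genes were DEG (1442 higher, 814 lower). Within the CycW5 libraries alone, with 3 OXTR-high libraries and library 89 among the 7 OXTR-low, edgeR called 0 genes, with 2188 at an unadjusted P under 0.05. The difference between the statuses was tested directly and gave 0 DEG of 15714 genes in edgeR, 0 in limma-voom and 4 in DESeq2. In edgeR 672 genes had an unadjusted P under 0.05, where 785.7 would be expected with no difference. This test rested on 3 CycW5 and 4 NoCycW5 libraries in the OXTR-high class.

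In 36 genes (0.236% of those tested), the 7 OXTR-high and the 17 OXTR-low libraries did not overlap in TMM-normalised CPM, and 13 of these had a symbol. The most certain of them was TRPV6, an epithelial calcium channel. It had 5.30 to 21.1 CPM in the OXTR-high libraries (median 15.6) and 0.834 to 3.18 CPM in the OXTR-low libraries (median 2.04). Libraries 80 and 72 were the lowest of the OXTR-high class and still lay over every OXTR-low library. The mean was 14.0 ± 5.93 CPM (SD, n = 7) against 2.06 ± 0.746 CPM (SD, n = 17). The log2 fold change of TRPV6 was 2.76 (SE 0.25, BH P = 5.1e-07). Library 89, with 3.18 CPM, was the highest of the OXTR-low class.

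VCAN, the proteoglycan versican of the extracellular matrix, had 167 to 449 CPM in the OXTR-high libraries (median 218) and 50.4 to 143 CPM in the OXTR-low libraries (median 80.8). The classes were separated, with libraries 91 and 87 the highest (log2 fold change 1.56, SE 0.20, BH P = 3.6e-05). MYRFL had 1.14 to 6.51 CPM in the OXTR-high and 0.148 to 0.969 CPM in the OXTR-low class (log2 fold change 2.52, SE 0.29, BH P = 1.3e-05). The ephrin receptors EPHB2 and EPHB6 were higher by 1.31 and 1.23 on the log2 scale (SE 0.20 and 0.18), and the Rac-regulating protein CHN2 by 0.79 (SE 0.10). In all 3 the lowest OXTR-high library was over the highest OXTR-low library, the narrowest margin being 8.77 against 8.60 CPM for EPHB6.

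Fewer genes were separated in the lower direction (8 genes or 0.0523% of those tested, against 28 or 0.183% in the higher direction). ABHD1, a protein of the hydrolase fold family, had 12.8 to 34.4 CPM in the OXTR-high class (median 19.5) and 40.2 to 116 CPM in the OXTR-low class (median 60.6). Its log2 fold change was -1.53 (SE 0.21, BH P = 6.5e-05), and library 89 with 53.1 CPM lay inside the OXTR-low class. The kinase SIK3 differed by -0.39 on the log2 scale (SE 0.06), with 41.5 to 57.2 CPM against 58.3 to 76.6 CPM. LMO3 was at a low level in both classes, 0.529 to 1.06 CPM against 1.16 to 4.28 CPM. The calls of these 9 genes held without any single library.

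AOX2, an aldehyde oxidase, had the largest fold change among the named genes, and its values fell in steps. Libraries 76, 87 and 91 had 97.7, 104 and 159 CPM. Library 72 had 20.8, library 83 had 2.54, and libraries 75 and 80 had 0.857 and 0.859 CPM, inside the range of the OXTR-low class (0.0729 to 1.16 CPM). The log2 fold change was 7.42 (SE 0.71, BH P = 1.1e-06). KCNE3, a subunit of potassium channels, had 20.7 to 28.8 CPM in libraries 76, 87 and 91, 1.05 to 10.1 CPM in the other 4 OXTR-high libraries and 0.149 to 3.26 CPM in the OXTR-low class (log2 fold change 3.92, SE 0.51, BH P = 4.5e-05). C1orf168 (log2 fold change 2.65) and ARHGAP42 (1.63) were over the highest OXTR-low library in 6 of the 7 OXTR-high libraries. For C1orf168 and ARHGAP42 that OXTR-low library was 89.

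Among the genes with the smallest BH P in the lower direction were MAPK13, a stress-activated kinase (log2 fold change -2.02), NRIP2 (-1.40), the zinc finger protein ZNF335 (-0.56), KLHDC4 (-0.79) and CCDC9 (-0.40). MAPK13 had 1.99, 4.64 and 2.86 CPM in libraries 76, 87 and 91, 7.73 to 12.4 CPM in the other OXTR-high libraries and 7.17 to 52.8 CPM in the OXTR-low class, where 7.17 was library 89. The 3 libraries lay under the OXTR-low range and the other 4 inside it.

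**Figure D3:**
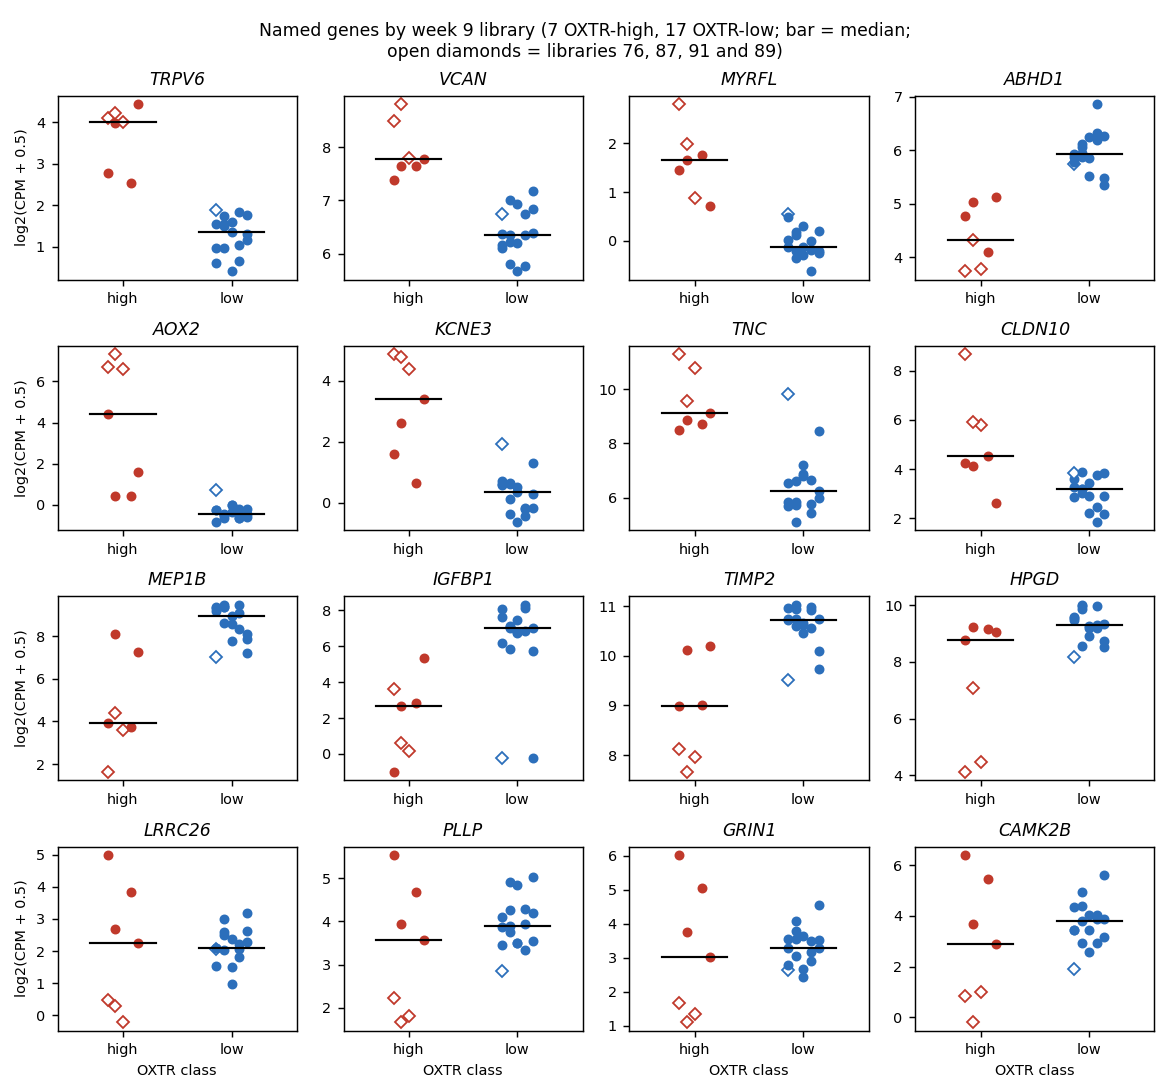
Abundance as log2(CPM + 0.5) of 16 named genes in each week 9 library (points), by OXTR class, with the median as a bar; open diamonds are OXTR-high libraries 76, 87 and 91 and OXTR-low library 89. TRPV6, VCAN, MYRFL and ABHD1 separate the classes, whereas in the bottom row the OXTR-high class runs from under to over the OXTR-low class.

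Oestrogen receptors and cofactors of steroid receptors were described next. ESR1, the main oestrogen receptor of the endometrium, had 59.8 to 148 CPM in the OXTR-high class (median 111) and 28.8 to 87.1 CPM in the OXTR-low class (median 64.9). It was higher in the OXTR-high class (log2 fold change 0.74, SE 0.16, BH P = 0.0028), and 5 of the 7 libraries were over the OXTR-low range. ESR1 was not called between NoCycW5 and CycW5 cows at week 5 (BH P = 0.39). Library 89 had the lowest value of the OXTR-low class.

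The oestrogen receptor ESR2, the coactivator NCOA3 and FKBP5, a cochaperone of steroid receptors, were not called (BH P = 0.31, 0.14 and 0.078). FKBP5 had 57.6 to 74.1 CPM in libraries 76, 87 and 91, 146 to 290 CPM in the other OXTR-high libraries and 159 to 326 CPM in the OXTR-low class. The 3 libraries and library 80, with 146 CPM, lay under the OXTR-low range. ESR2 had 1.62 to 3.59 CPM in the same 3 libraries, 8.81 to 20.4 CPM in the other OXTR-high libraries and 4.57 to 27.99 CPM in the OXTR-low class. Without the 4 OXTR-high libraries at the CycW5 end all 3 were called, with log2 fold changes of -2.39 for ESR2, 0.72 for NCOA3 and -1.74 for FKBP5 (BH P = 0.0014, 0.021 and 1.2e-05). At week 5 FKBP5 and ESR2 were lower in the NoCycW5 cows (log2 fold change -1.88 and -2.73, BH P = 7.4e-07 and 4.3e-06).

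Genes of prostaglandin synthesis, transport, breakdown and receptors were read next, as oxytocin drives pulses of prostaglandin F through OXTR. Of 8 tested, only PLA2G10, a secreted phospholipase, was called (log2 fold change -1.33, SE 0.42, BH P = 0.029), with 105 ± 104 CPM against 262 ± 116 CPM (SD over 7 and 17 libraries). It had 252 and 258 CPM in libraries 83 and 75 and 29.1 to 75.3 CPM in the other 5, under every OXTR-low library. The count was not stable: without the 4 OXTR-high libraries at the CycW5 end, 1 gene was called higher and 5 lower, and without libraries 76, 87, 91 and 89, 1 was called higher and 0 lower. The call of PLA2G10 was lost in the latter set (BH P = 0.19) and without library 72, 76, 80, 87 or 91 (BH P up to 0.077).

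PTGS2, the inducible cyclooxygenase, had 20.2 to 1672 CPM in the OXTR-high class and 23.5 to 677 CPM in the OXTR-low class. The value of 1672 CPM was that of library 83 alone, the next highest being 259 CPM in library 75, and PTGS2 was not called (log2 fold change 0.53, SE 0.64, BH P = 0.57). Without the 4 libraries at the CycW5 end, which include 83, it was lower (log2 fold change -2.15, BH P = 0.037). HPGD, which inactivates prostaglandins, had 21.96, 16.96 and 134 CPM in libraries 76, 87 and 91, under the whole OXTR-low class (289 to 1033 CPM). The other 4 OXTR-high libraries had 439 to 592 CPM, inside it, and HPGD was not called (log2 fold change -1.01, SE 0.47, BH P = 0.13). It was called without these 4 libraries (log2 fold change -3.49, BH P = 0.00026). At week 5 HPGD was lower in both the NoCycW5 (log2 fold change -3.58, BH P = 8.0e-06) and the CycNoP4 cows (-2.96, BH P = 0.0095), 2 comparisons that share their CycW5 libraries.

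ACSL4, which activates arachidonic acid, had 522 and 630 CPM in libraries 80 and 72, over the OXTR-low class (58.5 to 477 CPM), and 78.0 to 150 CPM in the other 5 (BH P = 0.078). ACSL3, of the same enzyme family, had its highest value of the class, 347 CPM, in library 72 as well (BH P = 0.66). The phospholipase PLA2G4A, the synthase PTGES and the prostaglandin F receptor PTGFR were not called (BH P = 0.21, 0.39 and 0.098). Without the 4 libraries at the CycW5 end, ACSL3 (log2 fold change -0.72, BH P = 0.032) and PLA2G4A (-1.0, BH P = 0.016) were lower and PTGFR was higher (3.24, BH P = 0.023), and without libraries 76, 87, 91 and 89 ACSL4 was higher (1.48, BH P = 0.017). PTGES reached 26.4 CPM in OXTR-low library 89, the highest of all 24 libraries. Without library 89 alone PTGES was called higher (log2 fold change 1.46, BH P = 0.00029), but not without libraries 76, 87, 91 and 89 together (0.45, BH P = 0.18).

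The list of luteal phase secretion and transport genes had 9 tested members, of which 5 were lower and 0 higher (55.6% lower, against 23.3% of the 2171 tested genes with a symbol). The median log2 fold change of the list was -0.71, and that of all genes tested was -0.014. The latter is an unlike reference, as the list held only genes with a symbol, which were more often called lower than higher (23.3% against 10.6%). IGFBP1, a binding protein of insulin-like growth factors, had 0 to 40.96 CPM in the OXTR-high class (median 5.79) and 0.343 to 321 CPM in the OXTR-low class (median 127; log2 fold change -3.82, SE 1.02, BH P = 0.013). MEP1B, a secreted or membrane-bound metalloprotease, had 280 and 154 CPM in libraries 75 and 83 and 2.60 to 20.3 CPM in the other 5, against 129 to 720 CPM in the OXTR-low class (log2 fold change -2.70, SE 0.67, BH P = 0.0082). In MEP1B, libraries 80 and 72 were thus as low as 76, 87 and 91, unlike in HPGD.

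The retinol carrier RBP4 (log2 fold change -0.71, BH P = 0.029), the glucose transporter SLC5A1 (-1.64, BH P = 0.041) and the Wnt inhibitor DKK1 (-1.55, BH P = 0.046) completed the 5, RBP4 being named after its value was seen. The calls of SLC5A1 and DKK1 were weak: they were lost without 13 and 18 of the 24 libraries in turn, with a BH P of up to 0.098 without library 87 and up to 0.096 without library 76. The list kept 3 lower members without library 87 and 2 without library 76.

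Sterol synthesis had 15 tested members, 5 of them lower and 0 higher (33.3% lower), and the log2 fold change was under 0 in all 15 (median -0.58). CYP51A1, the lanosterol demethylase, had 130 ± 61.0 CPM against 251 ± 90.5 CPM (SD over 7 and 17 libraries; log2 fold change -0.95, SE 0.27, BH P = 0.017). IDI1, an isomerase early in the pathway, and INSIG1, which senses sterols, had log2 fold changes of -0.86 and -0.78 (BH P = 0.021 and 0.016). The lowest CYP51A1 values were those of libraries 76 and 91 (59.0 and 61.2 CPM) and the lowest OXTR-low value that of library 89 (95.7 CPM). The list had 3 lower members without library 87, 2 without library 76, 9 without library 89 and 0 without libraries 76, 87, 91 and 89 together. At week 5 all 15 were lower in the NoCycW5 cows, and 2 were in the CycNoP4 cows. Only 15 of the 22 genes of the list had a symbol, and symbols were known only for genes that the study had listed as differentially expressed. The study's comparisons include CycW5 against NoCycW5 cows at week 5, so the week 5 count of 15 is no independent check.

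**Figure D4:**
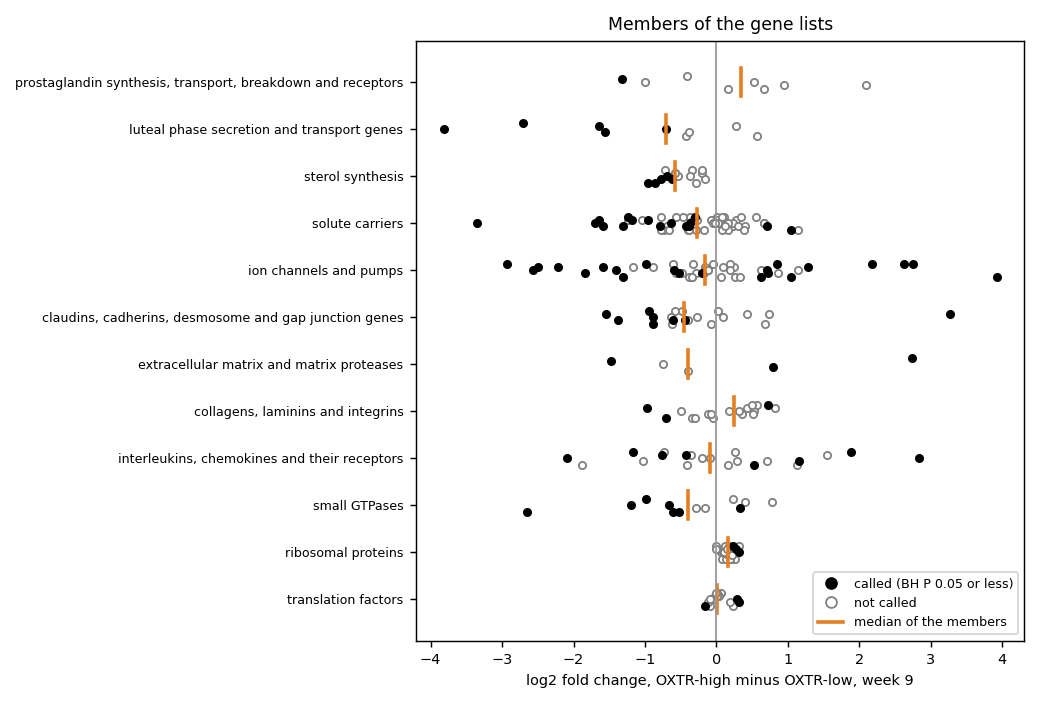
Log2 fold change (OXTR-high minus OXTR-low, week 9) of each tested member of 12 gene lists; filled points were called at a BH P of 0.05 or less, open points were not, and orange bars are medians. All 15 sterol synthesis genes lie under 0, and ion channels have called members on both sides of 0.

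The list counts stand against a high background, because symbols were known only for genes that the study had listed as differentially expressed in some comparison: of the 2171 such genes tested here, 33.9% were called, 10.6% higher and 23.3% lower. Solute carriers had 14 lower and 2 higher of 57 tested (24.6% and 3.51%), which is near the background for the lower direction. The zinc transporter SLC39A2 had 0.602 to 24.4 CPM against 1.90 to 201 CPM (log2 fold change -3.34, SE 0.82, BH P = 0.0076). The monocarboxylate transporter SLC16A8 had a log2 fold change of -1.70 at under 3 CPM in every library.

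Ion channels and pumps had 10 higher and 12 lower of 50 tested (20% and 24%). Beside TRPV6 and KCNE3, the rule named KCNIP4, a potassium channel partner, at 0.178 ± 0.203 CPM against 1.40 ± 0.914 CPM (SD over 7 and 17 libraries; log2 fold change -2.93, BH P = 0.0068). Without library 87, 7 ion channel genes were higher and 5 lower.

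Junction and adhesion genes (claudins, cadherins, desmosome and gap junction genes) had 7 lower and 1 higher of 20 tested (35% lower). CLDN10, a claudin that forms ion-selective junction pores, was the higher one, with 405 CPM in library 87, 54.7 and 60.4 CPM in libraries 76 and 91, 5.66 to 22.3 CPM in the other 4 and 3.15 to 14.2 CPM in the OXTR-low class (log2 fold change 3.26, SE 0.50, BH P = 0.00022). It stayed called without library 87 but not without libraries 76, 87, 91 and 89 together (log2 fold change 0.94, BH P = 0.052). The claudins CLDN8 (log2 fold change -1.55, BH P = 0.036) and CLDN4 (-1.38, BH P = 0.028) were lower, and both calls were lost without library 87 (BH P = 0.093 and 0.079). The list had 2 lower members without library 87 and 4 without library 76.

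Several matrix genes differed in libraries 76, 87 and 91 too. TNC, tenascin C, had 1763, 2500 and 759 CPM in libraries 76, 87 and 91 and 357 to 554 CPM in the other 4 OXTR-high libraries. The OXTR-low class lay between 34.4 and 906 CPM with a median of 76.3, and the value of 906 CPM was that of library 89 (log2 fold change 2.74, SE 0.55, BH P = 0.0022). TIMP2, an inhibitor of matrix proteases, had 202 to 278 CPM in libraries 76, 87 and 91, 507 to 1174 CPM in the other 4 and 731 to 2097 CPM in the OXTR-low class (log2 fold change -1.48, SE 0.29, BH P = 0.0019). FN1, fibronectin, was 1934 to 2111 CPM in the 3 libraries and 727 to 966 CPM in the other 4 (log2 fold change 0.79, BH P = 0.020), and its call was lost without library 76, 87 or 91 (BH P up to 0.071) and without these and library 89 together (log2 fold change 0.27, BH P = 0.22).

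In the list of matrix genes and proteases, 2 of 5 tested were higher and 1 lower. In the list of collagens, laminins and integrins, 1 of 18 was higher, the integrin subunit ITGAV (log2 fold change 0.73), and 2 were lower, the laminin subunit LAMA2 (-0.98) and the integrin subunit ITGA10 (-0.71, BH P = 0.058 without library 76).

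Cytokine and chemokine genes had 4 higher and 4 lower of 21 tested. CCL20, which attracts lymphocytes and dendritic cells, had 12.7, 11.6 and 8.26 CPM in libraries 75, 83 and 76, 4.48 or less in the other 4 OXTR-high libraries, and 0.104 to 7.21 CPM in the OXTR-low class, with library 89 the highest of the latter (log2 fold change 2.83, SE 0.74, BH P = 0.011). CXCL13, which attracts B cells, had 58.8 CPM in library 75 and was not called without that library (BH P = 0.020 with it and 0.14 without it). The receptor IL31RA had 3.82 to 4.22 CPM in libraries 75, 83, 80 and 72 and at most 0.188 CPM in libraries 76, 87 and 91, against 0.233 CPM or more in the OXTR-low class (log2 fold change -2.10, BH P = 0.041), a call lost without 12 of the 24 libraries in turn (BH P up to 0.074, without library 87).

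Small GTPases had 6 lower and 1 higher of 12 tested (50% lower). RAB3B, a GTPase of secretory vesicles, had 0.447 to 9.76 CPM in the OXTR-high class (median 1.305) and 0.930 to 43.3 CPM in the OXTR-low class (median 14.2; log2 fold change -2.65, SE 0.59, BH P = 0.0042). RASL10B (-0.98) was called, but not without library 76, 87 or 91. The count was 3 lower and 0 higher without library 87.

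The genes of cilia and tubulin motors had 8 higher and 7 lower of 30 tested. The kinesin KIF12 had 24.4 to 41.7 CPM in libraries 76, 87 and 91, 2.13 to 4.39 CPM in the other 4 and 0.817 to 6.28 CPM in the OXTR-low class (log2 fold change 3.14, SE 0.45, BH P = 0.00015). The tubulins TUBB4A and TUBB3 were higher by 1.67 and 1.77 on the log2 scale (BH P = 0.00066 and 0.022), and the call of TUBB3 was lost without library 87 (BH P = 0.21).

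Ribosomal protein genes had 3 higher of 27 tested (11.1%), RPS7, RPS15 and RPS20, with log2 fold changes of 0.23 to 0.32. None of them was called without library 87 or without library 76, and 20 of the 27 were called higher without library 89. Over all genes, 669 of 15353 were higher without library 87, 959 of 15350 without library 76 and 3263 of 15248 without library 89. Ribosomal protein genes have near-identical copies, among which reads could have been split. Of 15 translation factors, EEF1B2 (log2 fold change 0.32) and EEF1G (0.28) were higher and EIF3H (-0.16) was lower, and EEF1G and EIF3H were each not called without several single libraries (BH P up to 0.087 without library 87 and 0.12 without library 80).

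Zinc finger proteins had 3 higher and 9 lower of 39 tested. ZBTB16, a transcriptional repressor, had 1.10 to 2.68 CPM in libraries 76, 87 and 91, 12.8 to 17.4 CPM in the other 4 and 5.97 to 40.5 CPM in the OXTR-low class (log2 fold change -1.52, SE 0.39, BH P = 0.010). ZBTB40 was lower (-0.60, BH P = 0.0085), and ZBTB7C was higher (0.73, BH P = 0.038) but not called without 7 of the 24 libraries in turn, library 72 among them (BH P = 0.29). Of 10 genes of the mitochondrial ribosome and respiratory chain, 2 were lower, NDUFA4L2 (-0.83) and MRPL32 (-0.46, BH P = 0.055 without library 87). ENTPD7, a nucleoside triphosphate diphosphohydrolase, was the only called gene of 9 in the list of ectonucleotidases and alkaline phosphatases (0.56, BH P = 0.012). The hormone STC2 (-1.49, BH P = 0.016) was the only called gene of 2 tested oestrogen-responsive genes. The 1 tested cell cycle gene, MCM7, was not called (BH P = 0.46). In the IGF and Wnt lists, IGFBP1 and DKK1 were the only called genes, of 2 and 6 tested.

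Markers of cell types were read beside these groups. EPCAM, an epithelial adhesion protein, was lower in the OXTR-high class, with 325 ± 108 CPM against 497 ± 132 CPM (SD over 7 and 17 libraries; log2 fold change -0.61, BH P = 0.028), as was CLDN4, while KRT8 and MUC1 were not called (BH P = 0.95 and 0.20), nor was MUC5B of glands (BH P = 0.98) or VWF of endothelium (BH P = 0.34). The summed level of the 4 tested epithelial markers was 404 to 1052 CPM in the OXTR-high and 315 to 1276 CPM in the OXTR-low class. EPCAM and CLDN4 were not called without library 87 or 76, and both were at their lowest in OXTR-low library 89 (172 and 15.4 CPM). PDGFRA of stromal fibroblasts (log2 fold change -0.47, BH P = 0.041) and CDH5 of endothelium (-0.44, BH P = 0.023) were lower too, and not called without library 87 (BH P = 0.13 for PDGFRA). The part of the cell composition in the gene groups above was not tested. No identifier was at hand for the markers of leucocytes, macrophages, smooth muscle, ciliated epithelium and red blood cells, which were not analysed here.

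Libraries with a labelled state were then used to ask how far the OXTR classes of week 9 resembled non-luteal and luteal tissue at week 5. No library was in both comparisons, but the study took biopsies of the same cows at both weeks. The comparisons are thus not independent, and the labels do not show which libraries share a cow. Between the NoCycW5 and CycW5 cows of week 5, 4314 of 15738 genes were DEG (27.4%). Of the 1296 genes higher in the OXTR-high class, 310 (23.9%) were also higher in the NoCycW5 cows and 88 (6.8%) were lower, where 12.1% and 15.3% of all genes were. Of 1759 genes lower in the OXTR-high class and tested at week 5, 488 (27.7%) were also lower and 21 (1.2%) were higher. Set beside the CycNoP4 cows, which were cycling without P4 and differed from CycW5 cows in 2786 genes (17.7%), 390 of the 1296 higher genes (30.1%) were higher and 7 were lower, where 8.7% and 9.0% of all genes were. Of the 1759 lower genes, 399 (22.7%) were lower and 6 were higher. Both week 5 comparisons share the CycW5 libraries.

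Across all 15236 genes tested at both weeks, the log2 fold changes of week 9 and week 5 had r = 0.36 for the NoCycW5 and r = 0.45 for the CycNoP4 cows (Spearman's rho 0.35 and 0.51). Genes are not independent replicates, and these values are descriptions.

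All 50 libraries were fitted together, with libraries of the same cow treated as separate samples. The difference between the week 9 and the week 5 (NoCycW5 minus CycW5) comparison was tested in this fit. It was called for 2115 of 16003 genes (13.2%), with 1236 (7.72%) more positive at week 9 and 879 (5.49%) more negative. The 4 most certain genes with a symbol on the positive side were LRRC26, a subunit of potassium channels, GRIN1, a glutamate receptor subunit, PLLP, a membrane protein of epithelia, and CAMK2B, a calmodulin-dependent kinase. At week 5 the level of LRRC26 was 0.485 ± 0.146 CPM over 12 NoCycW5 libraries (SD) and 12.0 ± 8.91 CPM over 10 CycW5 libraries (SD), with a log2 fold change of -4.63 (BH P = 1.8e-07). At week 9 it was not called between the classes (log2 fold change 0.92, SE 0.51, BH P = 0.21).

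LRRC26 had 0.362, 0.895 and 0.715 CPM in libraries 76, 87 and 91, under every OXTR-low library (1.46 to 8.66 CPM), but 13.9 and 31.3 CPM in libraries 80 and 72, over every OXTR-low library. CAMK2B had 0.377 to 1.49 CPM in the first 3 and 43.3 and 83.7 CPM in libraries 80 and 72, against 3.26 to 47.8 CPM in the OXTR-low class. For CAMK2B only library 72 was over that range. GRIN1 and PLLP also had their lowest values in libraries 76, 87 and 91 and their highest in library 72 (64.6 and 45.9 CPM). Leaving out the 4 OXTR-high libraries at the CycW5 end turned the log2 fold change of LRRC26 from 0.92 to -2.69 (BH P = 0.00043), and CAMK2B, GRIN1 and PLLP were called lower as well (-3.79, -2.25 and -2.30). Leaving out libraries 76, 87, 91 and 89 instead gave called values in the other direction for LRRC26 and GRIN1 (1.68 and 1.498, BH P = 0.0045 and 0.0081).

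On the negative side of the difference stood GAS6, a ligand of receptor kinases, NRIP2, EIF3H and ESAM, an endothelial adhesion protein. GAS6 was lower in the OXTR-high class at week 9, with 77.0 to 132 CPM against 94.3 to 184 CPM (log2 fold change -0.53, SE 0.12, BH P = 0.0050). At week 5 it was higher in the NoCycW5 than in the CycW5 cows (log2 fold change 0.52, BH P = 0.0036). ESAM had opposite signs as well (-0.59 at week 9, BH P = 0.0046, and 0.41 at week 5, BH P = 0.047). Between CycNoP4 and CycW5 cows at week 5, GAS6 and ESAM had the sign of week 9 but were not called (log2 fold change -0.20 and -0.43, BH P = 0.45 and 0.16). NRIP2, with 1.88 to 4.59 CPM in the OXTR-high and 3.85 to 11.6 CPM in the OXTR-low class, was not called between NoCycW5 and CycW5 cows at week 5 (log2 fold change 0.25, BH P = 0.42).

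Calls of opposite sign in the NoCycW5 cows were rarer than the share over all genes. They made up 6.8% of the genes higher in the OXTR-high class, against a share of 15.3%. For the genes lower in that class it was 1.2%, against 12.1%. Among the 736 called genes with a symbol, 40 were DEG in both comparisons with opposite signs. By rule, MYO1A, PLS1, ELOVL7 and GPX2 were named from them. MYO1A and PLS1 are a motor and an actin bundler of microvilli. MYO1A had 66.8 and 67.3 CPM in libraries 75 and 83, 21.02 to 41.1 CPM in the other 5 and 10.05 to 36.5 CPM in the OXTR-low class (log2 fold change 1.17, SE 0.22, BH P = 0.0014), whereas its log2 fold change at week 5 was -1.35 (BH P = 0.00055). PLS1 was highest in library 72 (214 CPM) and had log2 fold changes of 1.06 at week 9 and -1.11 at week 5 (BH P = 0.0027 and 8.7e-05). ELOVL7, which elongates fatty acids, was also highest in library 72 (20.6 CPM, against at most 3.81 CPM in the OXTR-low class). GPX2, a glutathione peroxidase, had 25.5 to 36.7 CPM in libraries 75, 83, 80 and 72 and 6.31 to 15.3 CPM in libraries 76, 87 and 91, against 4.86 to 13.4 CPM in the OXTR-low class. In GPX2 the 4 libraries at the CycW5 end of the axis were thus the highest of the class. Without them the calls of GPX2 and MYO1A were lost (log2 fold change 0.16 and 0.62, BH P = 0.73 and 0.10).

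**Figure D5:**
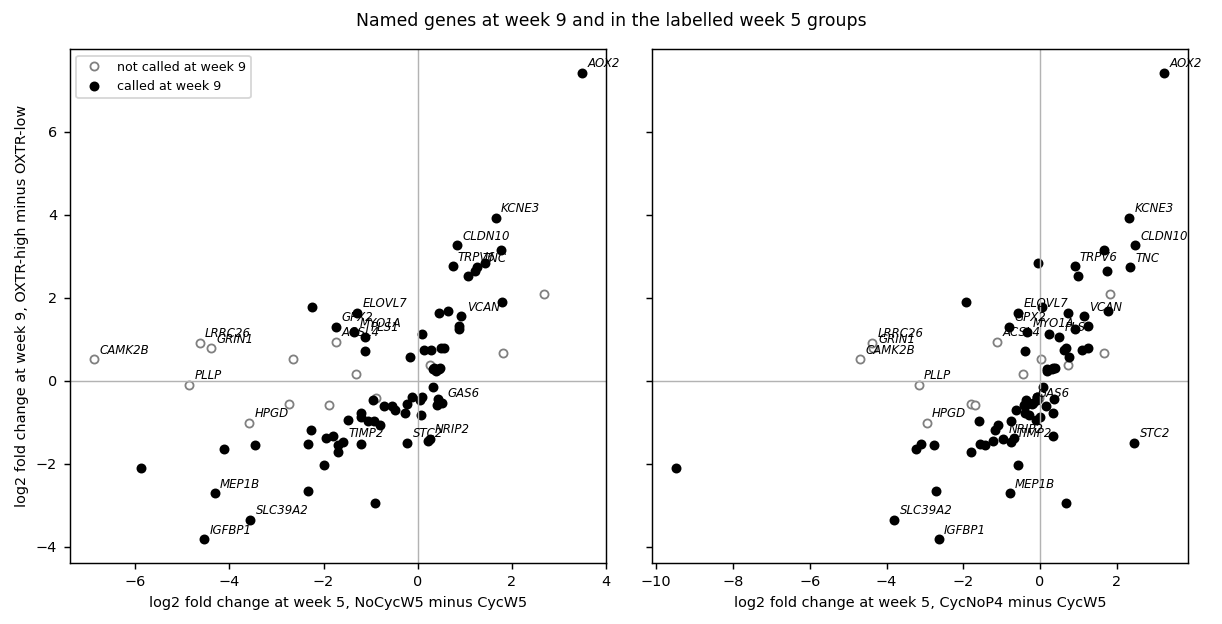
Log2 fold change of the named genes at week 9 (OXTR-high minus OXTR-low, vertical axis) against that at week 5 in NoCycW5 (left) and CycNoP4 cows (right), each minus CycW5; filled points were called at week 9. LRRC26, GRIN1, PLLP and CAMK2B lie far to the left and near 0 at week 9, and MYO1A, PLS1, ELOVL7 and GPX2 lie in the upper left of the left panel.

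Of all 3073 DEG, 1665 were still called without libraries 76, 87, 91 and 89, and 2298 without the 4 OXTR-high libraries at the CycW5 end. Over all named genes, which were mostly picked by P value or size of change, 72 were called with the 24 libraries. Without libraries 76, 87, 91 and 89, 54 of them were still called and 18 were not. Beside CLDN10, FN1 and PLA2G10, the calls lost included those of the sterol genes CYP51A1, IDI1 and INSIG1 (BH P = 0.10, 0.11 and 0.093), the luteal secretion genes DKK1 and SLC5A1, the claudins CLDN4 and CLDN8, the integrins ITGA10 and ITGAV, the markers EPCAM and PDGFRA, and RASL10B, MRPL32 and RPS7. Without the 4 OXTR-high libraries at the CycW5 end, 64 were still called and 8 were not, which beside GPX2 and MYO1A were CDH5, CXCL13, EEF1G, EIF3H, STC2 and ZBTB7C. The calls gained were 3 and 12. Of these, 3 and 11 were in genes that differed between NoCycW5 and CycW5 cows at week 5, which are genes of the axis that picked the libraries, so those gains are no independent evidence.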

How the data were processed

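Endometrial biopsies gave stranded mRNA libraries. The authors aligned the reads to the UMD3.1 assembly with HISAT2, counted them on Ensembl genes, and deposited raw counts of 18830 genes in 50 libraries without normalization; the labels also name StringTie and edgeR. OXTR CPM used the library total, and other CPM were scaled by TMM. Here, counts were fitted in edgeR 4.0.16 (R 4.3.3; TMM, filterByExpr, robust quasi-likelihood F test, no covariate), with OXTR out of the week 9 fits. Genes with a Benjamini-Hochberg adjusted P (BH P) of 0.05 or less were DEG. SE came from the F statistic. No pair of the 276 week 9 library pairs was a repeat (chi-square per degree of freedom 27.8 or more). Fits were tested on simulated data. Alternatives used DESeq2 1.42.0, limma 3.58.1, other filters, scalings and OXTR cuts, and left out libraries.

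Named were tested steroid receptor and prostaglandin genes; per direction, the 8 smallest BH P, the 5 largest separated changes at a mean of 1 CPM or more, and the 4 smallest BH P of the week difference; the 3 largest called changes per list; and 4 genes with opposite signs. The members and lists were chosen with earlier results of these data known. Symbols came from the study's supplementary tables (2322 of 2729 identifiers); genes without one were not named. Some genes that the rule names are not reported here. OXT, the only matched oxytocin signalling gene, did not pass the filter at week 9. Interferon and immediate early genes had no match. No columns of the authors' own comparisons were used. The cow and the microbiota were not fitted.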

Additional observations from a re-analysis of the deposited data

Results flagged for a closer look

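In 14 of the 86 named genes, 1 OXTR-high library lay apart from the other 6 (gap to the nearest over the range, critical value 0.568 for 7 values). The critical value gives about 1 group in 20 only for normal values in genes not picked by their values. These were CPM of genes mostly picked for their differences, so the count is not set against chance. In all 14 genes that library was the highest of its class. Library 83 was the highest in 7 of them, with 1672 CPM of PTGS2, 186 of PLA2G4A, 62.0 of DKK1, 60.5 of SLC5A1, 40.96 of IGFBP1, 224 of CLDN4 and 9.76 of RAB3B. The last 5 of these 7 genes were called lower in the OXTR-high class. Library 87 was the highest with 405 CPM of CLDN10, 32.7 of TUBB4A and 7.69 of TUBB3, library 75 with 58.8 of CXCL13 and 4.59 of NRIP2, library 76 with 258 of EIF3H and library 72 with 23.1 of ZBTB7C.

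The week 9 difference between OXTR classes minus the week 5 difference between NoCycW5 and CycW5 cows was called in 2115 of 16003 genes (13.2%, edgeR quasi-likelihood test, 50 libraries). The 8 genes named for it had the smallest BH P per direction among called genes with a symbol, so their calls follow from the choice. On the log2 scale the difference was 7.38 for CAMK2B, 5.54 for LRRC26, 5.16 for GRIN1 and 4.75 for PLLP, with BH P of 6.6e-07 to 1.3e-06. It was -1.66 for NRIP2, -1.06 for GAS6, -1.02 for ESAM and -0.50 for EIF3H, with BH P of 8.7e-05 to 0.00089.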

How the results depend on the processing

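No paired analysis was possible because the labels give no replicate numbers and do not link libraries to cows. Leaving out each library in turn gave 1539 (without library 87) to 5824 (without library 89) DEG between the OXTR classes, 1451 to 4364 between the 4 CycNoP4 and the CycW5 cows at week 5, and 1268 (without library 72) to 3140 (without library 89) for the difference between the weeks. CycW5 libraries alone gave 0 DEG between the classes, fitting only the compared groups gave 1771 for CycNoP4 against CycW5 cows, and DESeq2 gave 4 for the class by status difference. The share of higher genes, 42.2% as reported, was 54.3% with limma-voom and library quality weights (4016 DEG), 63.9% in the NoCycW5 libraries alone and 61.4% without libraries 76, 87, 89 and 91. A cut of 50 CPM, which moves library 75, gave 3755 DEG. Leaving out library 57 and the 2 sets of 4 libraries was chosen after seeing the data, as were DESeq2 and limma-voom for the status difference; without week 5 library 57, with high OXTR in the CycW5 group, the week 5 comparison had 5051 DEG.

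PTGS2 turned to -1.05 with DESeq2, -0.82 with limma-voom, -0.57 with quality weights, -1.36 in NoCycW5 libraries alone, -2.15 without the 4 OXTR-high libraries at the CycW5 end and ranged from -1.20 (without library 83) to 0.76 with 1 library left out. ACSL3 turned to -0.076, -0.27, -0.26 and -0.72 under the second to the fifth of these and ranged from -0.25 (without library 72) to 0.32. Without the same 4 libraries ACSL4 turned to -0.26 and ZBTB7C to -0.21, the latter a called gene. PTGES came to -0.00 in CycW5 libraries alone, which include library 89, and ESR2 to 0.019 without libraries 76, 87, 89 and 91. PTGES was called higher in NoCycW5 libraries alone (1.415, BH P = 0.041) and with quality weights (1.08, BH P = 0.0073). Of the 72 named genes called between the classes, most of them picked by P value or size of change, 49 were called whichever library was left out. Over all genes, 1511 of the 3073 calls held without library 87 alone. Depth differed little between classes, but genes under 1 CPM rest on few reads.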
